A study of Mus musculus with 4 samples.

Results

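The MHC class I genes and the genes that load their peptides were followed across the cell classes of the mouse lung. The group held 10 genes, taken by symbol from the deposited gene lists: B2m, H2-K1, H2-D1, H2-Q4, H2-Q6, H2-Q7, H2-T23, Tap1, Psmb8 and Nlrc5. All 10 were found among the 30028 genes of the 4 libraries. Each library was 1 pool of lung cells from 5 mice aged 11 weeks, so there was 1 library per group and no replicate. NW was wild type in normoxia with vehicle, NK the FUNDC1 knockout in normoxia with vehicle, HSW wild type under HySu and HSK the FUNDC1 knockout under HySu. HySu stands for hypoxia with SU5416, which blocks the VEGF receptor and was given in 3 weekly doses, and is used in mice as a model of pulmonary hypertension. The labels name neither the strain, and with it the H2 haplotype, nor the cells in which Fundc1 was deleted, nor any batch.

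MHC class I molecules display peptides from inside the cell to CD8 T cells and to natural killer cells. The heavy chain, encoded by H2-K1 or H2-D1 for the classical molecules, pairs with beta-2-microglobulin, the product of B2m. H2-Q4, H2-Q6, H2-Q7 and H2-T23 encode non-classical heavy chains: H2-Q6 and H2-Q7 give the Qa-2 antigen, and H2-T23 gives Qa-1, which shows leader peptides of other class I chains to inhibitory receptors of natural killer cells. Peptides are cut by the proteasome, in which Psmb8 replaces a constitutive subunit to form the immunoproteasome. They are then pumped into the endoplasmic reticulum by the transporter of which Tap1 is 1 subunit. Nlrc5 is the transactivator of class I promoters, where it acts through a protein complex bound to the proximal elements, and interferon raises the whole set in many cell types.

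Of the 10 genes, 8 lie in the H2 complex of chromosome 17 (GRCm38, GENCODE annotation): H2-K1 at chr17:33996017-34000347 on the minus strand, Tap1 at chr17:34187553-34197225, Psmb8 at chr17:34197721-34201454, H2-D1 at chr17:35262730-35267499, H2-Q4 at chr17:35379617-35385290, H2-Q6 at chr17:35424850-35430055 and H2-Q7 at chr17:35439155-35443773, all on the plus strand apart from H2-K1, and H2-T23 at chr17:36029773-36032855 on the minus strand. Tap1 and Psmb8 are direct neighbours. B2m lies at chr2:122147686-122153083 and Nlrc5 at chr8:94434356-94527272, both on the plus strand. The heavy chains resemble each other, which bears on how reads are assigned. Of all stretches of 100 bases in the annotated transcripts, 11.98% in H2-Q7 and 10.8% in H2-Q6 recur in another gene, and for H2-Q6 most of them recur in H2-Q7 (8.36%). The share was 3.59% in H2-D1, 3.15% in H2-T23, 2.16% in H2-Q4, 0.957% in H2-K1 and 0 in B2m, Tap1, Psmb8 and Nlrc5. Values of H2-Q6 and H2-Q7 are therefore the least certain as to which of the genes gave a read.

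The promoters are shown because the genes share elements there. Whether these elements bear on the levels or ratios that follow was not tested. RefSeq promoters (GRCm38.p6) were matched for 9 of the 10 genes, all but Nlrc5. A window that overlapped the annotated span of its own gene was not printed. The 5 windows printed run 5′ to 3′ along the gene's own strand from base -181 to base -2 relative to the start site. They lie at chr2:122147506-122147685 (plus strand) for B2m, chr17:34000349-34000528 (minus strand) for H2-K1, chr17:35379436-35379615 (plus strand) for H2-Q4, chr17:35424669-35424848 (plus strand) for H2-Q6 and chr17:35438974-35439153 (plus strand) for H2-Q7. Capitals mark matches to the interferon response elements, the kappa B elements, the CRE core and the Y box.
B2m: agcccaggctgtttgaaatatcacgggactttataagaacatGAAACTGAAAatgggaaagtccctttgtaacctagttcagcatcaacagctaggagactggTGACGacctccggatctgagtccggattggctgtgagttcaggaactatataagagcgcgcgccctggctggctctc
H2-K1: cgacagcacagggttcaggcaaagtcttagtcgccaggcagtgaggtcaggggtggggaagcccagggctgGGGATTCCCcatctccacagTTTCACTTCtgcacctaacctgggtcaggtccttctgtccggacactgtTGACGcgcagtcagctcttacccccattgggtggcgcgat
H2-Q4: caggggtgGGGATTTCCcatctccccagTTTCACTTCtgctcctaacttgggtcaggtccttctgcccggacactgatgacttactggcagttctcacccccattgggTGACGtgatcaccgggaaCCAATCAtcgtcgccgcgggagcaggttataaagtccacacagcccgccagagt
H2-Q6: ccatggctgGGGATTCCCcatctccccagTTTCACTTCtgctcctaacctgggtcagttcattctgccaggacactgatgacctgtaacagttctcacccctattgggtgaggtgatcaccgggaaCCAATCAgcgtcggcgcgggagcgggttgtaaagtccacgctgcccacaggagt
H2-Q7: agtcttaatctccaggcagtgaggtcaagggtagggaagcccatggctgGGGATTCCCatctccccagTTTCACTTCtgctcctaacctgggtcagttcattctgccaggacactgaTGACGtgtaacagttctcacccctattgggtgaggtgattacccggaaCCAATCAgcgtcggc

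Motifs were searched on both strands in the 250 bases upstream of the start site of 27025 promoters. The interferon-stimulated response element was searched as GAAA, any 2 bases, GAAA, which 3.04% of all promoters held, and was found in B2m (from base -139) and in H2-T23 (from base -124, on the reverse strand). A form shorter by 1 base, GAANNGAAA, occurred in 6.34% of promoters and in 5 of the 9 matched here: H2-K1, H2-D1, H2-Q4, H2-Q6 and H2-Q7, each on the reverse strand, where it reads TTTCACTTC in the printed windows. The kappa B element GGGATTCCC, present in 0.311% of promoters, stood upstream of it in H2-K1 (from -110), H2-D1 (from -170), H2-Q6 (from -172) and H2-Q7 (from -132). H2-Q4 held the variant GGGATTTCC at the matching place (from -173), a sequence seen in 0.292% of promoters. The CRE core TGACG, which takes part in the proximal class I module, was found in 6 of the 9 (B2m, H2-K1, H2-D1, H2-Q4, H2-Q7 and Tap1) against 17.9% of all promoters. The H2-Q4 match (from -73, with the interferon element from -153) lay at another place than that of H2-D1 (from -101, with the element from -150). The Y box CCAATCA, which contains CCAAT, was found in 6 of the 9 (H2-D1, H2-Q4, H2-Q6, H2-Q7, H2-T23 and Tap1) against 7.65%. CCAAT alone, which 34.5% of promoters held, was in 8 of the 9, and is not capitalised. In this window Psmb8 matched none of these letters. A match describes the letters and not a bound site.

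The libraries held 4128 to 9164 cells and 41308071 to 63501686 UMIs (unique molecular identifiers, 1 per captured RNA molecule), with a median of 5355 to 7845.5 UMIs per cell. Each library began at its own minimum, from 3182 UMIs in NK to 4726 in HSK. Cells with markers of more than 1 lineage were removed, and this took 26.5% of NW, 32.6% of NK, 18.8% of HSW and 12.7% of HSK cells. The remaining cells were clustered without the 10 genes and named from marker genes. From 20 to 70 cell barcodes were shared between any pair of libraries. Fundc1 stood at 43.7 CPM (UMI counts scaled to a common library total) in NW, 38.7 in HSW, 0.865 in NK and 0.278 in HSK over the kept cells of all classes together, low in both libraries labelled knockout. The vascular endothelial class had 57 cells in NW and 139 in NK, against 277 in HSW and 134 in HSK. All 12 of its markers were detected in every library, at a summed level between 14608 and 17875 CPM, against 137 to 188 CPM in alveolar type 2 cells. Cyp1a1 and haemoglobin genes were among the 10 leading genes of the class. Every level below is a sum of UMIs over cells of 1 class and 1 library, scaled to CPM. Square brackets hold 95% intervals of counting error only, which say nothing of the variation between mice or captures. A class was used where a library had at least 30 of its cells. That gave 11 classes in all 4 libraries, and B cells and non-classical monocytes in 3. The class named T and NK was cluster 6 alone, whose leading genes include the T cell genes Trbc2, Cd3d and Cd8b1. Cluster 18, with Gzma, Prf1 and the natural killer receptor genes Klra8 and Klre1 among its leading genes, stayed unnamed. Its cells are therefore absent from every value given for T and NK cells. With the pathway genes in the clustering, a cluster led by Gzma and Klra8 was named T and NK.

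B2m, the light chain common to all class I molecules, was highest in vascular endothelial cells in 4 of 4 libraries among the 11 classes. Its level there was 5154 CPM in NW and 4625 in NK, against 8093 in HSW and 7415 in HSK. Next in every library were T and NK cells, with 3792 in NW and 3216 in NK, against 5651 in HSW and 4954 in HSK. Interstitial macrophages, classical monocytes, neutrophils, fibroblasts, dendritic cells and alveolar macrophages followed, with geometric means over the libraries from 2558 to 3165 CPM and an order that changed from library to library. Epithelial cells were far lower: alveolar type 2 cells, the surfactant-producing cells of the alveolus, had 452 in NW and 484 in NK, against 718 in HSW and 647 in HSK. Ciliated cells were lowest in 4 of 4 libraries, 22.8-fold below the endothelium as a geometric mean. Haemoglobin, surfactant and Scgb1a1 RNA took a large share of the UMIs of airway cells. It summed to between 362600 (NK) and 638580 CPM (HSK) in ciliated cells. In club and secretory cells it summed to between 543200 (NK) and 779100 CPM (HSW). Its part in the levels, folds and ratios of these 2 classes, here and below, was not tested. Non-classical monocytes, which crawl along the vessel wall, were close to the endothelium, with 5184 in NW and 4488 in NK, against 8007 in HSW.

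The classical heavy chains H2-K1 and H2-D1 had the same upper and lower ends. H2-D1 in endothelial cells stood at 2932 CPM in NW and 3259 in NK, against 3689 in HSW and 3329 in HSK, first of the 11 classes in each library and 15.9-fold above club and secretory cells. In non-classical monocytes it was higher still, at 3898 in NW and 4342 in NK, against 4707 in HSW. T and NK cells, neutrophils, alveolar macrophages and classical monocytes and interstitial macrophages lay close together for H2-D1, at geometric means of 2212 to 2341 CPM. H2-K1 in endothelial cells stood at 1920.2 CPM in NW and 2302 in NK, against 3049 in HSW and 2528 in HSK. In T and NK cells it was 2146 in NW and 2290.1 in NK, against 1849 in HSW and 1690.4 in HSK, above the endothelium in NW and below it in the other 3 libraries. B cells, at 2169 in NW and 2635 in NK, against 2869.8 in HSW, were also above the endothelium in NW and NK. Alveolar type 2 cells carried 709 in NW and 790.2 in NK, against 848 in HSW and 762 in HSK of H2-K1. The lowest class was club and secretory cells, with a geometric mean 10.7-fold below the endothelium, and the interval of the ratio of ciliated cells to them held 1 in 4 of 4 libraries.

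H2-Q4, H2-Q6 and H2-Q7 were restricted to fewer classes. H2-Q4 in endothelial cells stood at 237 CPM in NW and 319.6 in NK, against 507 in HSW and 431 in HSK. Second of the 11 classes were T and NK cells with 203 in NW and 143 in NK, against 99.0 in HSW and 72.7 in HSK, and 9 of the 11 classes had a geometric mean between 7.69 and 57.2 CPM. H2-Q6 was again highest in the endothelium, at 329.9 CPM in NW and 424 in NK, against 522 in HSW and 448 in HSK. T and NK cells and dendritic cells followed, with geometric means of 224.5 and 147 CPM, and the step down to interstitial macrophages (26.4 CPM) exceeded counting error in all 4 libraries. B cells, at 354 in NW and 467 in NK, against 498 in HSW, lay on either side of the endothelial level of H2-Q6, and their H2-Q4 stood at 204 in NW and 170.1 in NK, against 223 in HSW. H2-Q7 put T and NK cells on top in 4 of 4 libraries, with 629 in NW and 802 in NK, against 1127 in HSW and 836 in HSK, and the endothelium second, with 502 in NW and 510.3 in NK, against 855 in HSW and 638 in HSK. The 2 classes differed beyond counting error in each library. B cells reached 1410.3 CPM of H2-Q7 in HSW, above T and NK cells.

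H2-T23, the Qa-1 chain, was highest in endothelial cells at 485 CPM in NW and 624 in NK, against 786 in HSW and 595 in HSK. Of the 11 classes dendritic cells and T and NK cells came next, with geometric means of 341 and 332 CPM, and the interval of their ratio excluded 1 in 1 of 4 libraries. B cells, at 426 in NW and 494 in NK, against 580 in HSW, stood above both and below the endothelium. Fibroblasts, at 161 in NW and 209.9 in NK, against 224 in HSW and 197 in HSK, stood above alveolar macrophages in 4 of 4 libraries. Ciliated cells were lowest, with 10, 31, 26 and 13 UMIs, a 62.7-fold lower geometric mean than the endothelium.

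The peptide supply genes had another order. Psmb8 was highest in the dendritic cell class in 4 of 4 libraries. It stood there at 1160.5 CPM in NW and 1009.8 in NK, against 1611 in HSW and 1635 in HSK. The unnamed cluster with other dendritic markers was not ranked. Of the 11 classes T and NK cells came next in each library, followed by classical monocytes. The endothelium, with 367 in NW and 357 in NK, against 548 in HSW and 490.1 in HSK, lay below both in 4 of 4 libraries, beyond counting error in each. Among the 11 classes Tap1 was also highest in dendritic cells, at 269 CPM in NW and 249 in NK, against 141 in HSW and 177 in HSK, and second in T and NK cells, at 177 in NW and 224 in NK, against 122 in HSW and 117 in HSK, and the interval of the ratio between them excluded 1 in 2 of 4 libraries. B cells, which lacked enough cells in HSK, had 185 in NW and 257 in NK, against 214 in HSW, above dendritic cells in NK and HSW. Endothelial Tap1 stood at 118 in NW and 126 in NK, against 73.8 in HSW and 52.6 in HSK, from 42, 77, 129 and 47 UMIs. Ciliated cells had the lowest geometric mean of both genes, 45.3-fold below dendritic cells for Psmb8 and 31.2-fold for Tap1.

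Nlrc5, the transactivator, was sparse. Among the 11 classes it was highest in T and NK cells in 4 of 4 libraries, with 33.4 CPM in NW and 56.5 in NK, against 27.8 in HSW and 18.2 in HSK, from 45, 98, 27 and 7 UMIs. B cells had 40.4 in NW and 30.6 in NK, against 30.1 in HSW, above T and NK cells in NW and HSW, and classical monocytes 17.4 in NW and 22.9 in NK, against 12.7 in HSW and 16.4 in HSK. Endothelial cells had 6, 8, 15 and 5 UMIs, and their level lay between 5.59 and 16.9 CPM. The interval of the ratio to neutrophils held 1 in 4 of 4 libraries, and dendritic cells were above the endothelium beyond counting error in 1. Fibroblasts in HSK and ciliated cells in NK were at 0 UMIs. The class with the most B2m, H2-K1 and H2-D1 RNA among the 11 was therefore not the class with the most Nlrc5 RNA.

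**Figure D1:**
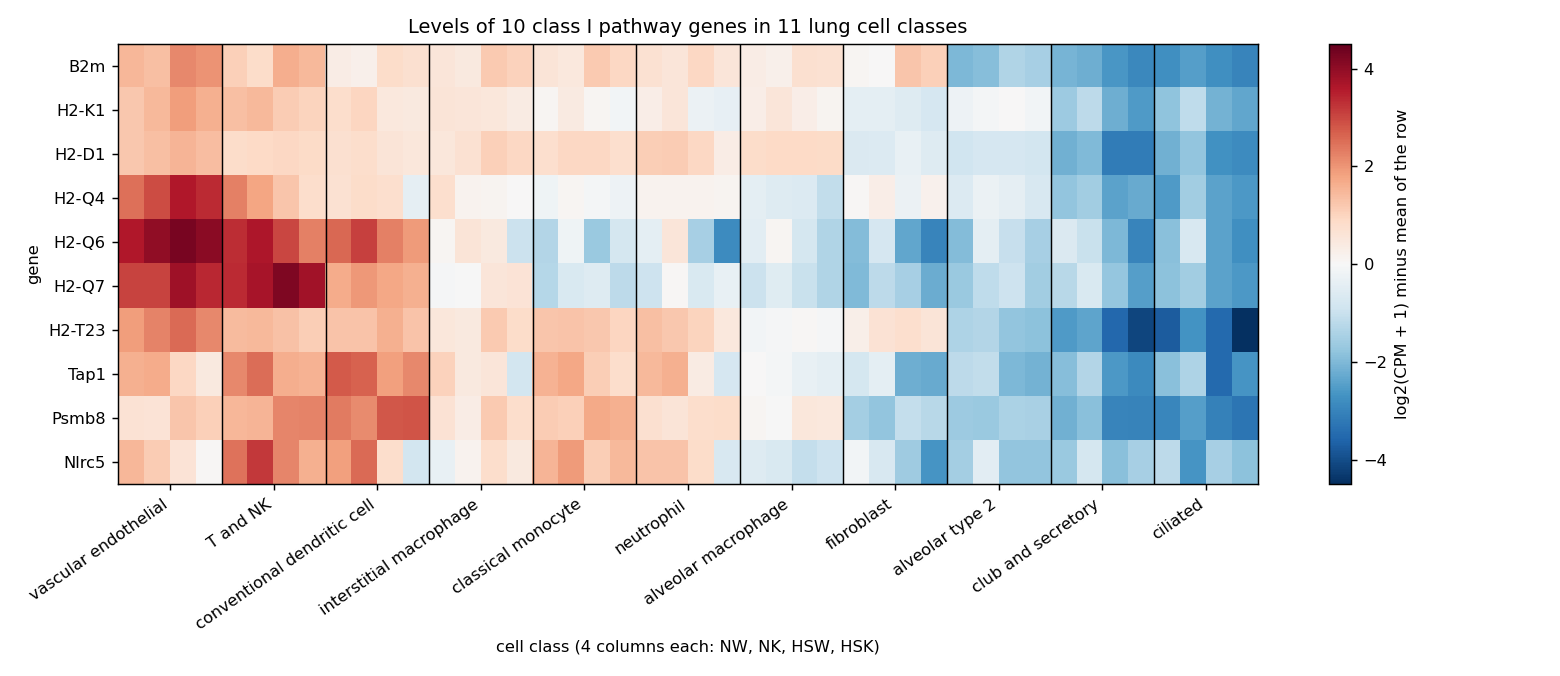
Level of each gene (rows) in each of 11 cell classes with 4 columns per class for NW, NK, HSW and HSK, as log2(CPM + 1) minus the mean of the row over the 44 columns, so colours compare classes within a gene and not genes with each other. The endothelial columns are the darkest red for B2m, H2-D1, H2-Q4, H2-Q6 and H2-T23, the T and NK columns for H2-Q7 and Nlrc5, the dendritic cell columns for Tap1 and Psmb8, and ciliated and club cells are blue throughout.

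Set against alveolar type 2 cells, endothelial cells were higher for all 10 genes in all 4 libraries, with a median log2 difference over the genes of 3.23 (NW), 3.05 (NK), 3.44 (HSW) and 3.12 (HSK). These medians describe the 10 genes and were not compared with other lists. Surfactant RNA takes a large share of the UMIs of alveolar type 2 cells, where haemoglobin and surfactant genes summed to 295380.0 in NW and 301600.0 in NK, and to 344310.0 in HSW and 341640.0 in HSK CPM, against 5610.0 to 16087 CPM in the endothelium. Its part in the difference was not tested.

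The first comparison asked what HySu did in wild-type lung, HSW against NW. A gene was counted as higher or lower in a class when its CPM ratio was at least 1.5-fold with an interval that excludes 1, among genes with at least 20 UMIs over the pair. In endothelial cells 6 of the 10 genes were higher, where 6.23% of all tested genes were, and 1 was lower, where 10.7% were. H2-Q4 had the largest ratio, 2.14 [1.71, 2.71], from 84 UMIs in NW and 886 in HSW. H2-Q7 had 1.70 [1.46, 2.00] and H2-T23 1.62 [1.38, 1.91]. H2-K1 with 1.59 [1.47, 1.72], H2-Q6 with 1.58 [1.30, 1.93] and B2m with 1.57 [1.5, 1.65] passed as well. Psmb8, at 1.49 [1.24, 1.81], and H2-D1, at 1.26 [1.18, 1.34], had intervals above 1 under the 1.5-fold mark. Tap1 was the gene that was lower, at 0.623 [0.437, 0.905]. After TMM scaling, which sets the bulk of genes level between libraries, its ratio was 0.702 and no longer counted. Nlrc5 had 0.507 [0.186, 1.60], an interval that its 6 and 15 UMIs make wide.

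Summed leukocyte markers in the endothelial class moved in the same direction: the 11 genes, all detected in each library, summed to 2360.1 in NW and 2690.1 in NK, and to 3606 in HSW and 3342 in HSK CPM, against 18033 to 22682 CPM in classical monocytes. The 11 include Cd74, of the MHC class II pathway, and were not split by gene. Their sum is therefore not a measure of leukocyte RNA alone. The 10 cell cycle markers summed to 144 in NW and 124 in NK, and to 444 in HSW and 651 in HSK CPM, with 5 of them at 0 in NW and in NK. The 15 markers of T and NK cells summed to 76.1 in NW and 169.6 in NK, and to 89.8 in HSW and 63.8 in HSK CPM, with 4 at 0 in NW and 2 in HSK. The part of these cells or states in the class I ratios was not tested.

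**Figure D2:**
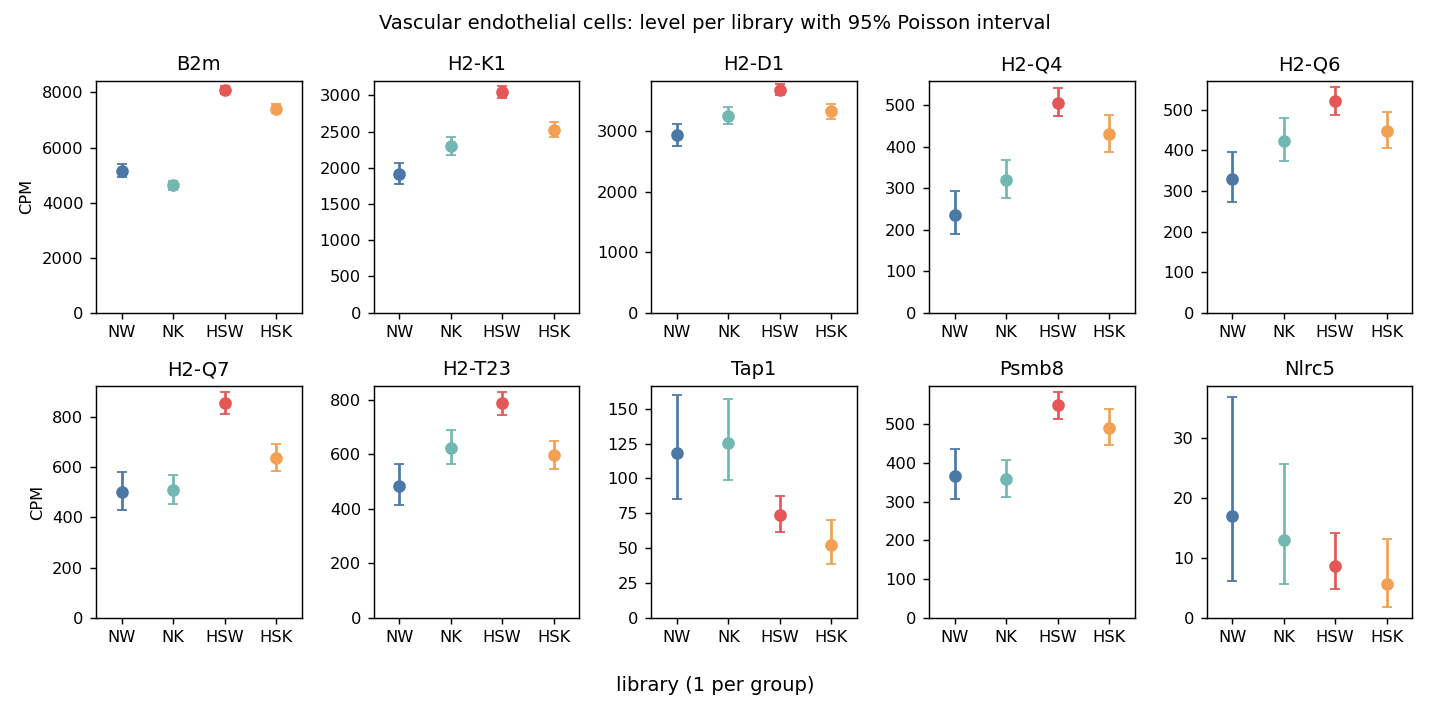
Level of the 10 genes in vascular endothelial cells of each library, in CPM on axes that start at 0, with exact 95% Poisson intervals as bars (1 library per group). HSW is the highest library for 8 of the 10 genes, HSK lies below HSW for all 10, and Tap1 is lower in both HySu libraries than in both normoxia libraries.

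Over the 14 classes compared, the endothelium among them, 25 of 126 tested pairs of gene and class were higher and 12 were lower, against 4.53% and 27.1% of all genes. The median log2 ratio of all genes lay below 0 in each class, from -0.06 in the endothelium to -1.13 in club and secretory cells. An interval above 1, of any size, was held by 7.92% of all genes and 1 below it by 36.2%. Such intervals are narrower for genes with more UMIs, and these shares of all genes, here and below, were not matched for UMI number. After TMM scaling 49 pairs were higher and 4 lower, against 11.0% and 9.85%. Changes are therefore given with their scaled value where the 2 differ in direction.

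B2m was higher in 8 of the 14 classes and its interval lay above 1 in 12. Fibroblasts went from 1922 to 4296 CPM, a ratio of 2.24 [2.11, 2.37], alveolar type 1 cells from 1512 to 3467 CPM, and B cells from 3178 to 5881 CPM. The type 1 class had 37 cells in NW and 35 in HSW. Alveolar type 2 markers summed to 149860 CPM (NW) and 166500 CPM (HSW) in it, against 322880 and 364690 CPM in type 2 cells. The part of type 2 RNA in the type 1 ratios, here and below, was not tested. Alveolar type 2 cells, interstitial macrophages and both monocyte classes had ratios between 1.51 and 1.59. Club and secretory cells were the only class below 1, at 0.687, and after TMM scaling this ratio turned to 1.43; all 14 scaled intervals lay above 1.

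Some classes drew on clusters in different proportions in the libraries. Alveolar type 2 cells came mostly from clusters 1 and 3, with 468 and 648 cells in NW and 638 and 321 in HSW, beside cluster 23 with 20 and 23. In cluster 1, led by Scd1 and Sftpc, B2m stood at 429 CPM in NW and 712 in HSW, and in cluster 3, led by Lyz1 and Sftpa1, at 453 and 689. Classical monocytes came from cluster 2, with 2136 CPM of B2m in NW and 3652 in HSW, and cluster 4, with 3405 and 5201. B2m was thus higher in HSW within each of the 4 clusters. Neutrophils came from clusters 14 and 20, with 203 and 19 cells in NW and 138 and 30 in NK, against 47 and 35 in HSW and 24 and 27 in HSK.

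Psmb8 was higher in 3 of 14 classes, B cells (1.70 [1.53, 1.90]), T and NK cells (1.63 [1.49, 1.78]) and alveolar type 1 cells (2.71 [1.49, 5.21]), and its interval lay above 1 in 11. Classical monocytes went from 513 to 759.7 CPM and dendritic cells from 1160.5 to 1611 CPM, ratios of 1.48 and 1.39. The 1 class counted as lower was club and secretory cells at 0.567, which after TMM scaling became 1.18.

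H2-Q7 was higher in 7 of 13 classes. B cells stood out with 373 CPM in NW, 466 in NK and 1410.3 in HSW, a HSW to NW ratio of 3.78 [3.35, 4.26]. T and NK cells had 1.79 [1.64, 1.96], classical monocytes 1.68 [1.40, 2.01] and alveolar type 2 cells 1.70 [1.36, 2.13]. Alveolar macrophages, at 0.984 [0.842, 1.15], and dendritic cells, at 1.06 [0.842, 1.32], had intervals that hold 1. H2-Q6, which shares part of its sequence with H2-Q7, did not follow: in B cells it had 1.40 [1.21, 1.63], in T and NK cells 0.801 [0.672, 0.952] and in classical monocytes 0.751 [0.514, 1.08]. Among 11 tested classes H2-Q6 was counted as higher in the endothelium and in alveolar type 2 cells (2.03 [1.39, 3.02]). Reads of H2-Q6 and H2-Q7 are the least certain in their assignment, and the part of this in the contrast was not tested. H2-Q4 in T and NK cells was lower, from 203 to 99.0 CPM, a ratio of 0.488 [0.383, 0.618], opposite to its ratio of 2.14 in the endothelium.

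The classical chains moved less. H2-K1 was counted as higher in 1 of 14 classes, the endothelium, with an interval above 1 in 3 and below 1 in 5, but after TMM scaling above 1 in 11 and below in 0. Its ratios elsewhere ran from 0.673 in club and secretory cells to 1.32 in B cells. In T and NK cells it was 0.862 [0.812, 0.914] by CPM and 1.05 after TMM scaling. H2-D1 was higher in 1 class, alveolar type 1 cells (1.65 [1.40, 1.95]), and lower in club and secretory cells, where its ratio of 0.506 turned to 1.05 after scaling. H2-T23 was higher in the endothelium and in interstitial macrophages, where it went from 190.0 to 298 CPM.

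Tap1 went the other way from B2m and Psmb8. It was lower in 6 of 11 tested classes, had an interval below 1 in 9, and was above 1 in B cells alone (1.15 [0.921, 1.44]). Dendritic cells went from 269 to 141 CPM, a ratio of 0.523 [0.407, 0.666]. Neutrophils had 0.476 [0.312, 0.704], and within their cluster 14 Tap1 stood at 112 CPM in NW and 74.0 in HSW. The class drew a larger share of its cells from cluster 20 in HSW, where Tap1 stood at 16.6 CPM, and the part of this in the ratio was not tested. The ratio was 0.460 [0.275, 0.730] in non-classical monocytes and 0.536 [0.388, 0.735] in alveolar type 2 cells. After TMM scaling 3 classes were lower, namely dendritic cells (0.643), neutrophils (0.646) and non-classical monocytes (0.521). Its direct neighbour Psmb8 thus had a ratio above 1 in 12 of 14 classes while Tap1 had one in 1 of 11. Nlrc5 was below 1 in 8 of 8 tested classes, from 0.451 to 0.833, and none passed the 1.5-fold rule. Its interval excluded 1 in classical monocytes, at 0.730 [0.550, 0.960]. After TMM scaling the Nlrc5 ratios ran from 0.555 to 1.01, with 1 of the 8 above 1, and 0 intervals excluded 1.

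In the knockout the HySu comparison was HSK against NK, which shares no library with the first. Over 11 classes 7 of 103 tested pairs were higher and 39 lower, against 5.61% and 38.3% of all genes, so the lower count was near the background. Intervals above and below 1 of any size were held by 8.62% and 45.7% of all genes. After TMM scaling 23 were higher and 16 lower, against 14.3% and 12.6%, and relative to genes of similar length 14 and 15, against 11.9% and 10.1%. In endothelial cells 1 gene was higher, B2m with 1.60 [1.53, 1.68], and 1 lower, Tap1 with 0.419 [0.285, 0.610], where 9.29% and 19.1% of all genes were. Tap1 was lower in 9 of 11 classes with an interval below 1 in all 11, and after scaling in 5. B2m was higher in 4 classes and lower in club and secretory cells, where 0.618 turned to 1.63 after scaling, and all 11 of its scaled intervals lay above 1. Psmb8 was higher in T and NK cells (1.65 [1.47, 1.85]) and dendritic cells (1.62 [1.47, 1.78]). H2-Q6 was lower in 8 of 10 classes, among them alveolar macrophages (0.343 [0.279, 0.421]) and T and NK cells (0.389 [0.285, 0.519]), and after scaling in 6. In the endothelium H2-Q6 had 1.06 [0.901, 1.24]. Nlrc5 was lower in 3 of 5 tested classes, with 1 UMI in HSK against 43 in NK in dendritic cells (0.0724 [0.00179, 0.426]). H2-K1 had its interval below 1 in 10 of 11 classes by CPM, but after TMM scaling below 1 in 4 and above 1 in 3.

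**Figure D3:**
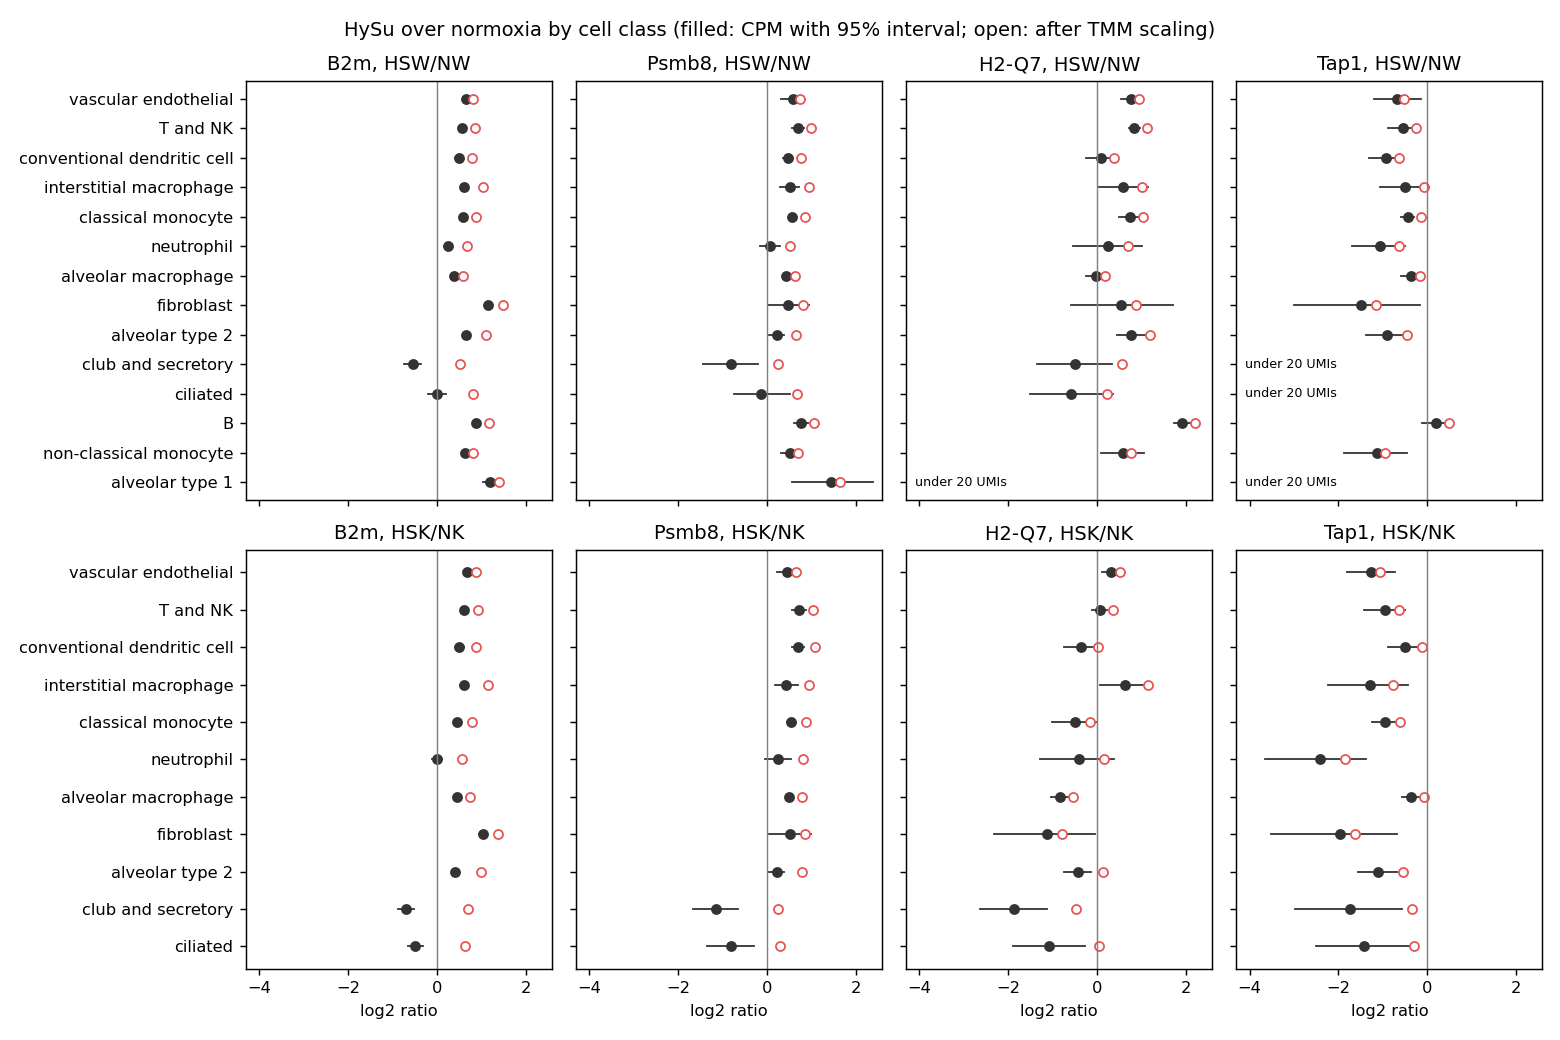
Log2 ratio of HySu over normoxia in wild type (top) and knockout (bottom) for B2m, Psmb8, H2-Q7 and Tap1 in each cell class, with filled points and 95% counting intervals for CPM and open points after TMM scaling (log2 axis). B2m and Psmb8 points lie mostly right of 0 and Tap1 points mostly left of 0 in both genotypes, while H2-Q7 lies mostly right of 0 in wild type and mostly left in the knockout by CPM.

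Ratios also varied with the length of the gene. For HSW against NW the median log2 ratio of all genes was taken in 5 groups of equal size by exonic length. Over the classes its middle value was 0.08 in the group of the shortest genes and -0.57 in that of the longest. For HSK against NK the 2 values were 0.12 and -0.79, for NK against NW -0.08 and 0.16, and for HSK against HSW 0.01 and -0.03. In HSW against NW B2m, with 860 exonic bases, fell in the shortest group, and so did H2-Q6 in each class but classical monocytes, where it fell in group 2. H2-K1, H2-D1, H2-Q4, H2-T23 and Psmb8 fell in group 2, H2-Q7 in group 3, Tap1 in group 3 or 4 by class, and Nlrc5, with 8493 bases, in the longest group. Against the median of their own length group, B2m, Psmb8 and H2-D1 were above in 14 of 14 classes for HSW over NW, H2-Q7 in 13 of 13, Tap1 in 3 of 11 and Nlrc5 in 4 of 8. By this measure 40 pairs were higher and 3 lower, where 9.30% and 8.45% of all genes were. Tap1 was then lower in 1 class, non-classical monocytes, and higher in B cells. In the endothelium Tap1 stood at -0.54 relative to its length group on the log2 scale.

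**Figure D4:**
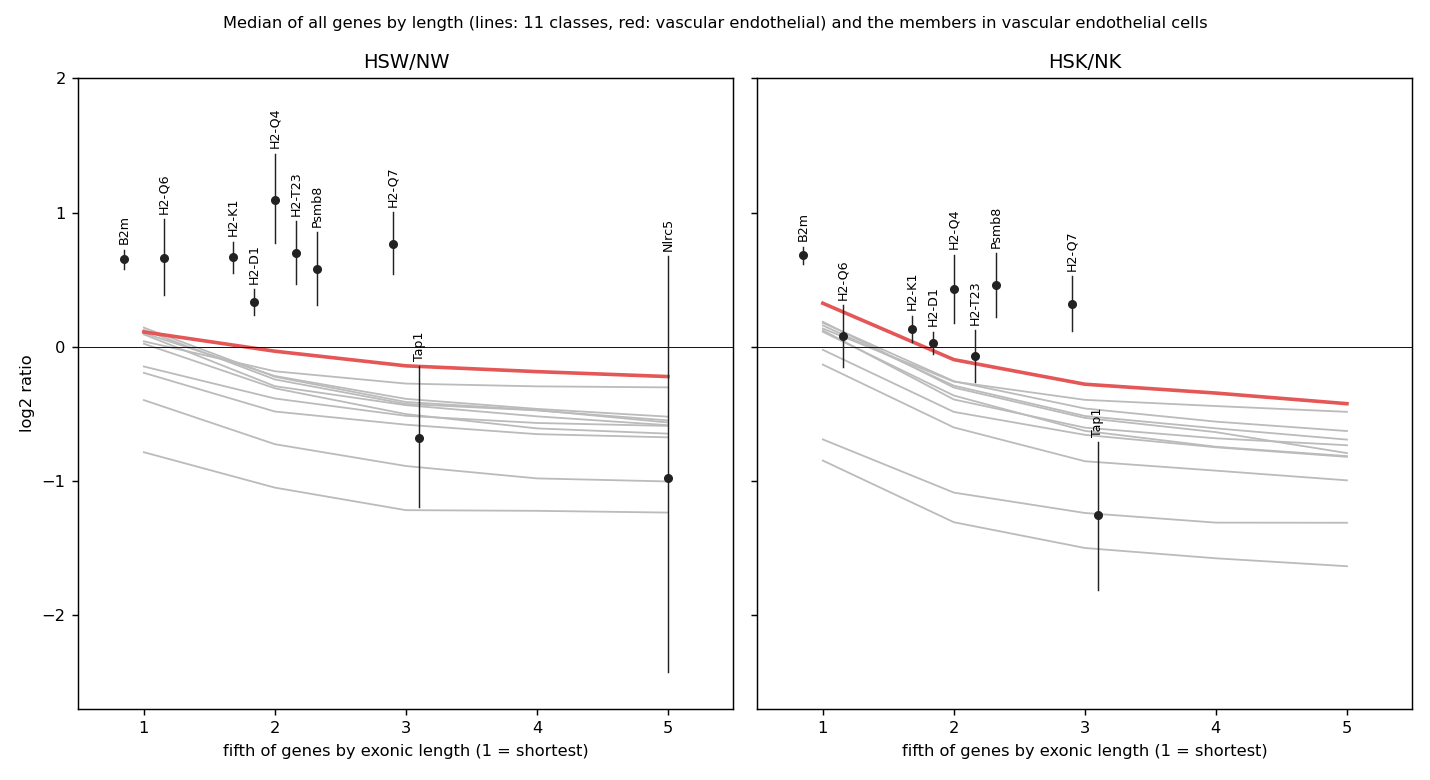
Median log2 ratio of all genes in 5 groups of equal size by exonic length (lines, 1 per class, red for vascular endothelial cells), with the class I and loading genes in endothelial cells as points with 95% counting intervals at their length group, spread sideways for legibility. Lines fall from short to long genes in both HySu comparisons, B2m, the heavy chains and Psmb8 lie above the red line in HSW/NW, and Tap1 lies below it in both.

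The knockout in normoxia, NK against NW, was compared over 15 classes. Of 140 tested pairs 13 were higher and 1 lower, against 8.88% and 4.75% of all genes. After TMM scaling 7 were higher and 2 lower, against 6.14% and 6.54%, and relative to genes of similar length 8 and 1, against 6.27% and 5.91%. In endothelial cells none of 9 tested genes passed the rule, where 7.32% of all genes were higher and 5.84% lower. Intervals lay above 1 for H2-K1 (1.20 [1.09, 1.32]), H2-D1 (1.11 [1.03, 1.20]), H2-Q4 (1.35 [1.04, 1.76]), H2-Q6 (1.28 [1.03, 1.61]) and H2-T23 (1.29 [1.07, 1.55]). B2m was below 1 at 0.897 [0.846, 0.952]. Across classes H2-K1 had its interval above 1 in 12 of 15 and B2m had it below 1 in 8 of 15, where 16.4% and 9.21% of all genes did. After TMM scaling these counts were 8 and 11.

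H2-Q6 held 5 of the 13 higher pairs (3 after TMM scaling) and H2-Q7 3. In alveolar type 2 cells H2-Q6 went from 5.92 to 18.9 CPM, a ratio of 3.20 [2.23, 4.66]. In classical monocytes it went from 9.81 to 22.4 CPM (2.28 [1.74, 2.99]) and in neutrophils from 18.7 to 38.2 CPM (2.05 [1.22, 3.45]). Classes with high H2-Q6 had smaller ratios, such as 1.24 in T and NK cells and 1.32 in B cells. H2-Q7 was higher in neutrophils (2.04 [1.37, 3.03]), plasma cells (3.05 [2.01, 4.75]) and classical monocytes (1.52 [1.26, 1.84]). Nlrc5 was higher in alveolar type 2 cells, from 8 and 24 UMIs, in T and NK cells (1.69 [1.18, 2.46]) and in non-classical monocytes (1.78 [1.05, 3.00]).

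Summed markers of T and NK cells were higher in NK than NW in every class compared apart from plasma cells, so this was not particular to the classes just named. The sum went from 158 to 479 CPM in dendritic cells, from 64.3 to 193 in ciliated cells and from 76.1 to 169.6 in the endothelium. In alveolar type 2 cells and classical monocytes all 15 markers were detected in each library. They summed to 80.9 in NW and 136 in NK, and to 49.7 in HSW and 44.4 in HSK CPM in alveolar type 2 cells. In classical monocytes they summed to 119.7 in NW and 189.6 in NK, and to 90.4 in HSW and 111 in HSK CPM. From NW to NK the sum went from 135 to 214 CPM in neutrophils and from 89.0 to 174 in non-classical monocytes (1 marker at 0 in NK), against 264 to 189 in plasma cells. The class I receptors and coreceptors of natural killer and CD8 T cells were followed as well: in alveolar type 2 cells 8 of the 15 listed were tested and all had ratios above 1, with a median log2 ratio of 1.19 against 0.07 for all genes. Medians that set a list beside all genes were taken with a small count added to each gene, which moves the all-gene median slightly. Klra8, a Ly49 receptor for class I, had 2.97 [1.84, 4.94] there and 3.78 [2.33, 6.26] in classical monocytes. The part of RNA from other cells in the H2-Q6, H2-Q7 and Nlrc5 ratios was not tested.

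Under HySu the knockout was compared with wild type as HSK against HSW, the pair of libraries whose all-gene median shifted least, between -0.17 and 0.04 on the log2 scale. Of 97 tested pairs over 11 classes 1 was higher and 9 lower, against 4.37% and 4.55% of all genes. After TMM scaling 1 was higher and 8 lower, against 4.58% and 4.34%, and the same counts relative to genes of similar length stood against 4.60% and 4.13%. Of the 97 intervals 51 lay below 1 and 1 above, where 8.87% and 8.03% of all genes had theirs. A gene with many UMIs can exclude 1 at a small shift. B2m in endothelial cells had 14150 UMIs in HSW and 6627 in HSK, whereas all genes entered from 20 UMIs over the pair. The counts and shares are therefore not matched for UMI number. B2m had its interval below 1 in 11 of 11 classes, with ratios from 0.757 in neutrophils to 0.964 in alveolar macrophages, and in 11 of 11 after TMM scaling too. H2-K1, H2-D1 and H2-T23 each had it in 7 of 11 classes, and 6 after scaling. Psmb8 had it in 2, interstitial macrophages (0.756 [0.653, 0.873]) and classical monocytes (0.930 [0.872, 0.993]), and its other ratios ran from 0.844 to 1.03. Neutrophils drew 47 and 35 cells from clusters 14 and 20 in HSW, and 24 and 27 in HSK. In HSW B2m stood at 4566 CPM in cluster 14 and 1906 in cluster 20. The part of this in the neutrophil ratios was not tested.

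In endothelial cells all 10 ratios of HSK to HSW were below 1 and 7 intervals lay below 1, where 7.52% of all genes had theirs below and 6.89% above, while no gene reached the 1.5-fold rule, where 3.75% of all genes were higher and 4.31% lower. The shares of intervals were not matched for UMI number. H2-Q7 had 0.746 [0.676, 0.822], H2-T23 0.757 [0.684, 0.838] and H2-K1 0.829 [0.789, 0.871]. H2-Q4 had 0.850 [0.752, 0.959], H2-Q6 0.858 [0.761, 0.966], H2-D1 0.902 [0.864, 0.943] and B2m 0.916 [0.890, 0.943]. Tap1, Psmb8 and Nlrc5 had intervals that reach 1. The median log2 ratio of the 10 genes was -0.25, against -0.02 for all genes in the class.

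The pairs past the rule lay in other classes. H2-Q6 was lower in interstitial macrophages (0.359 [0.157, 0.748]), T and NK cells (0.599 [0.431, 0.819]) and alveolar macrophages (0.644 [0.504, 0.821]), and higher in classical monocytes, from 43 and 24 UMIs (1.98 [1.15, 3.33]). H2-Q7 was lower in alveolar type 2 cells (0.637 [0.522, 0.777]) and classical monocytes (0.642 [0.453, 0.892]), H2-Q4 in dendritic cells (0.438 [0.210, 0.846]) and H2-T23 in ciliated cells (0.457 [0.215, 0.921]). Tap1 was lower in interstitial macrophages, with 57.1 CPM in HSW and 21.4 in HSK, and in neutrophils, from 30 and 8 UMIs. In HSW neutrophils Tap1 stood at 74.0 CPM in cluster 14 and 16.6 in cluster 20. The part of the changed cluster shares in its ratio was not tested.

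The difference between the HySu effects, log2 of HSK over NK minus log2 of HSW over NW, uses all 4 libraries and so restates both genotype comparisons in 1 value. It was below 0 for 84 of 102 pairs of gene and class. Its interval lay below 0 for 49 and above 0 for 2, where 13.2% and 8.32% of all genes did. Those shares were again not matched for UMI number. The all-gene median of this difference ran from -0.29 in club and secretory cells to -0.01 in dendritic cells. H2-K1 and H2-D1 were below 0 in 11 of 11 classes, with 9 and 10 intervals below 0, and H2-T23 in 11 of 11, with 5. H2-Q6 was below 0 in 9 of 9, with 6 intervals, and H2-Q7 in 10 of 11, with 7. B2m and Psmb8 were below 0 in 6 of 11 each. The interval of B2m lay below 0 in 5 classes and above 0 in 1, and that of Psmb8 below in 0 and above in 1.

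In endothelial cells, where the all-gene median difference was -0.05, H2-T23 had -0.77 [-1.06, -0.47], H2-Q4 -0.67 [-1.07, -0.26], H2-Q6 -0.58 [-0.94, -0.23], H2-K1 -0.53 [-0.68, -0.38], H2-Q7 -0.45 [-0.75, -0.15] and H2-D1 -0.30 [-0.42, -0.17]. All 6 heavy chains thus had intervals below 0, where 9.89% of all genes in the class did, and 8.76% had theirs above 0. B2m, at 0.03 [-0.07, 0.12], and Psmb8, at -0.12 [-0.48, 0.23], had intervals that hold 0. Of the 6, all but H2-Q7 had intervals above NW in NK already, and all 6 had intervals below HSW in HSK, and both steps enter the difference. In T and NK cells H2-Q6 (-1.04 [-1.53, -0.56]), H2-Q7 (-0.78 [-1.0, -0.56]), H2-K1 (-0.22 [-0.37, -0.08]) and H2-D1 (-0.15 [-0.28, -0.02]) had intervals below 0. Those of H2-Q4 (0.06 [-0.60, 0.71]), H2-T23 (-0.21 [-0.56, 0.15]), B2m (0.05 [-0.04, 0.14]) and Psmb8 (0.02 [-0.18, 0.23]) held 0 there. In classical monocytes H2-Q7 had -1.25 [-1.78, -0.71], H2-T23 -0.33 [-0.50, -0.15], H2-K1 -0.56 [-0.66, -0.46], H2-D1 -0.36 [-0.42, -0.30] and B2m -0.14 [-0.19, -0.09], all with intervals below 0. Those of H2-Q4 (-0.41 [-0.88, 0.07]), H2-Q6 (-0.21 [-1.02, 0.61]) and Psmb8 (-0.02 [-0.13, 0.10]) held 0. This class joins clusters 2 and 4, with 853 and 810 cells in NW but 187 and 58 in HSK. From NK to HSK H2-T23 went from 312 to 211 CPM in cluster 2 and from 344 to 424 in cluster 4. H2-K1 went from 951 to 670 and from 1339 to 1095 in that order. The part of the cluster shares was not tested.

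**Figure D5:**
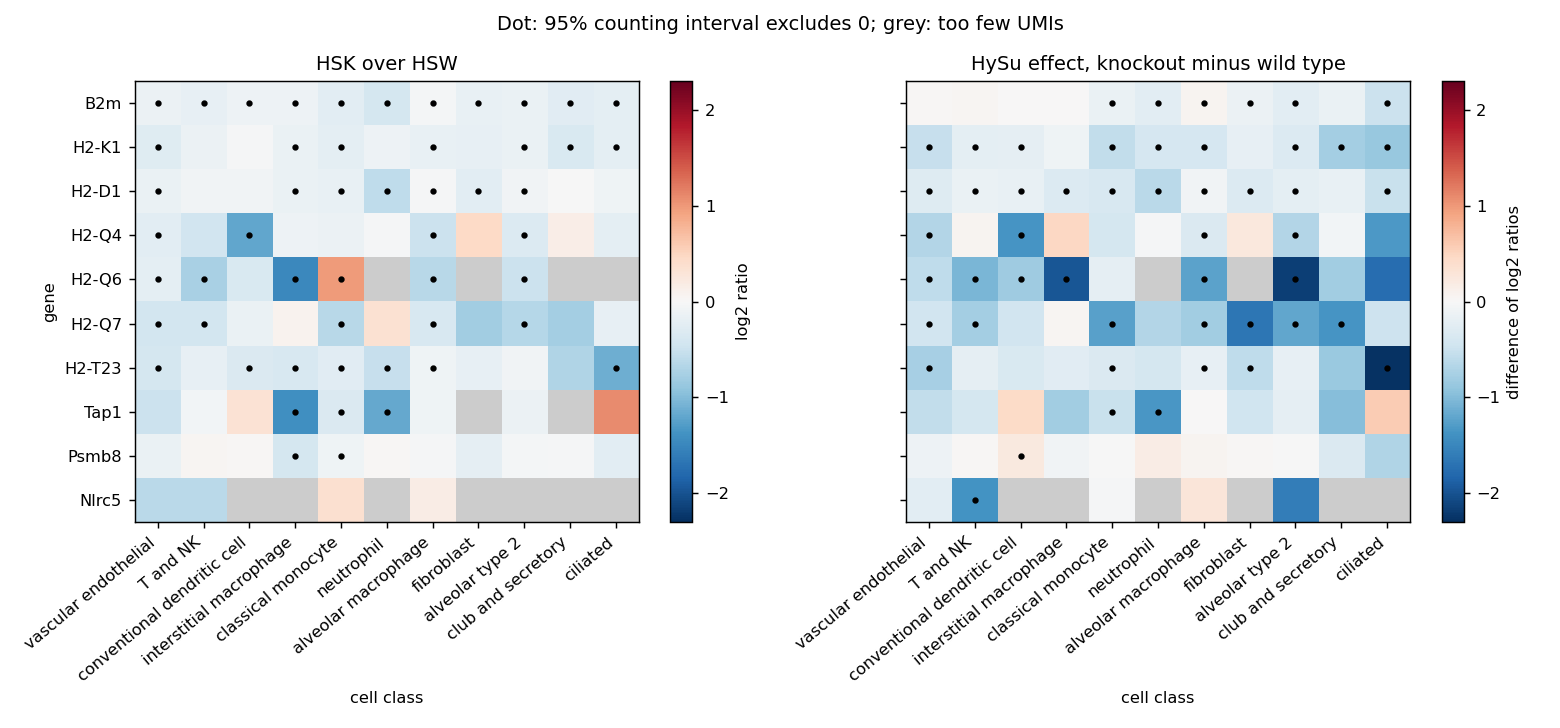
Log2 ratio of HSK over HSW (left) and difference of the HySu effects between knockout and wild type (right) for the 10 genes in 11 cell classes, on 1 colour scale from -2.3 to 2.3, with a dot where the 95% counting interval excludes 0 and grey where UMIs were too few. B2m carries a dot in all 11 classes on the left, and the heavy chains H2-K1, H2-D1 and H2-T23 are blue in all 11 classes on the right.

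Other genes of the pathway were followed from fixed lists, in the endothelium first. For HSW against NW the 4 other immunoproteasome genes all had intervals above 1, without reaching the 1.5-fold rule, with Psmb9, a further catalytic subunit, at 1.49 [1.15, 1.95] and Psme2, of the proteasome activator, at 1.42 [1.14, 1.80]. The 3 constitutive subunits Psmb5, Psmb6 and Psmb7 had no interval that excludes 1. Of 7 other loading genes 2 were lower and none higher, where 10.7% of all genes were lower, with Calr, the chaperone calreticulin, at 0.544 [0.468, 0.635] and Pdia3, its partner in the loading complex, at 0.646 [0.558, 0.750]. The median log2 ratio was 0.44 for the immunoproteasome genes, -0.45 for the loading genes and, with the same small count added, -0.09 for all genes. Tap1 thus sat with the loading genes and Psmb8 with the immunoproteasome genes. Of 27 regulators, 3 were lower and none higher, a share of lower genes near that of all genes (10.7%), with Nfyc, a subunit of the factor that binds the Y box, at 0.456 [0.247, 0.881] and Irf9, of the interferon signal, at 0.522 [0.359, 0.773]. Of the 8 tested relatives of class I, Hfe, which controls iron uptake, was higher at 2.00 [1.15, 3.75].

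For HSK against NK in the endothelium 6 of the 7 loading genes were lower, where 19.1% of all genes were, including Calr (0.529 [0.449, 0.624]) and Erap1, the peptidase that trims class I peptides (0.533 [0.373, 0.759]). For HSK against HSW all 7 had ratios below 1 and 2 were lower, where 4.31% of all genes were, namely Tapbpl, which edits bound peptides (0.619 [0.428, 0.877]), and Erap1 (0.663 [0.485, 0.896]). Of the 27 regulators in that comparison 1 was higher and 2 lower, close to the shares of all genes (3.75% and 4.31%). Rfxank, a part of the complex on class I promoters, was higher (2.02 [1.18, 3.46]), and Irf3 (0.591 [0.408, 0.840]) and Stat2 (0.632 [0.407, 0.956]), both of interferon signalling, were lower. In alveolar type 2 cells the loading genes had ratios below 1 in 7 of 7 for HSW against NW, with Calr at 0.513 [0.482, 0.546], where the all-gene median log2 ratio was also low, at -0.47. In classical monocytes the 4 other immunoproteasome genes had intervals above 1 in the same comparison, with Psmb9 at 1.36 [1.26, 1.47] and Psme2 at 1.22 [1.16, 1.28].

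Likeness of profiles was measured as Spearman correlation of log2(CPM + 10) over 56 sums of class and library, which share libraries and depth, and is a description. Within the group it ran from 0.519 for B2m with H2-Q6 to 0.899 for H2-K1 with H2-Q7. Psmb8 was most like Psmb9 (0.958), Phf11b (0.946) and Psme2 (0.934). Psmb9 was also among the 3 nearest for H2-T23 (0.891), Tap1 (0.905) and H2-Q7 (0.842). The nearest gene to H2-Q6 was S1pr1 (0.850), and Tap2, the other transporter subunit, came next (0.842). B2m was nearest to Nosip (0.881), H2-D1 to Itsn2 (0.894), with Irf2 among its 3 nearest (0.875), and H2-K1 to Il2rg (0.864). H2-Q4 was nearest to Rfc1 (0.845). Tap1 was nearest to Prpf38b (0.910) and Nlrc5 to Srsf11 (0.890).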

How the data were processed

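Single-cell libraries of mouse lung were made on microwells (GEXSCOPE), 1 per group, per the labels' protocols. The tools named for GRCm38/mm10 are STAR 2.6.1a, cutadapt 1.17, Scanpy and featureCounts 2.0.1, per the submitters' processing notes. The deposited matrices hold UMI counts per gene and cell, as whole numbers, and their cells had already been filtered on UMIs.

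Cells with fewer than 200 genes or over 20% mitochondrial UMIs were removed (1 in NK and 1 in HSW). Cells whose summed markers of a second lineage exceeded 0.15 of that lineage's own level, with at least 3 UMIs, were removed as mixed; Scrublet marked 4 NW, 1 NK, 8 HSW and 30 HSK cells. Cells were clustered with scanpy 1.11.5 and leidenalg 0.10.2 (2000 variable genes, 40 components, 20 neighbours, resolution 1) without the class I, loading and other pathway genes. A cluster was named from at least 3 detected markers, and 4.35 to 6.60% of kept cells stayed unnamed. UMIs were summed per class and library. Levels carry exact Poisson intervals, and ratios exact conditional binomial (Clopper-Pearson) intervals. TMM factors came from edgeR 4.0.16. With 1 library per group no test between conditions was possible. The ratio code was tested on simulated data. Depth is the UMI total given in the report. Alternatives were TMM scaling, no filter on low counts, Scrublet calls alone, a common UMI minimum, thinning, equal weight for clusters, the pathway genes in the clustering, a lower fold, each cell's own CPM, centring on genes of similar length and leaving out ciliated and club cells.

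The 10 genes and the pathway lists were chosen with earlier results of these data known. All 10 genes were described in every class. Of the other lists at most the 2 highest and 2 lowest ratios per class were named, among genes with at least 30 UMIs and an interval that excludes 1, and for likeness the 3 genes with the highest Spearman correlation per member.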

Additional observations from a re-analysis of the deposited data

How the results depend on the processing

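Results rest on 1 library per group, so intervals hold counting error only, and differences between mice, captures or sequencing runs cannot be told apart from the conditions. Endothelial cells numbered 57 in NW, and Nlrc5 had at most 15 UMIs there. No paired analysis was possible because each group has 1 library. Centring on genes of similar length and leaving out ciliated and club cells were chosen after seeing the data. The medians of endothelial over alveolar type 2 cells ran from 2.83 to 3.77 over their alternatives.

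For HSW against NW, the 25 higher pairs of gene and class became 49 with TMM scaling, 40 relative to genes of similar length and 43 at a lower fold for a call, and the 12 lower pairs became 4, 3 and 23 in that order and 7 with thinned cells. For NK against NW, the 13 higher pairs became 7 with TMM scaling, 8 relative to genes of similar length and 31 at the lower fold. The 1 lower pair became 2 with TMM scaling, 0 with Scrublet calls alone, 4 with the highest UMI minimum, 4 with thinned cells and 3 at the lower fold. For HSK against HSW, the 1 higher pair became 0 with thinned cells, and the 9 lower pairs became 23 at the lower fold. For HSK against NK, the 7 higher pairs became 23 with TMM scaling, 14 relative to genes of similar length and 18 at the lower fold, and the 39 lower pairs became 16 with TMM scaling, 15 relative to genes of similar length, 25 with thinned cells and 23 without ciliated and club cells. All other alternatives listed kept these counts within 1.5 times.

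Of the 107 single ratios of the called pairs followed, 9 changed direction with TMM scaling and 8 relative to genes of similar length, all in ciliated or club cells. The log2 values under these 2 settings, in that order, were as follows. For HSW against NW in club cells H2-D1 went to 0.08 and 0.07, and Psmb8 to 0.24 and 0.23. For HSK against NK in ciliated cells H2-D1 went to 0.04 and 0.01, H2-Q7 to 0.04 and 0.16, and Psmb8 to 0.30 and 0.27. In club cells B2m went to 0.71 and 0.15, H2-D1 to 0.24 and 0.15, Psmb8 to 0.24 and 0.15, and H2-K1 to 0.05 with TMM scaling alone. With clusters weighted equally, Tap1 in alveolar type 2 cells for HSW against NW went to 0.25. With Scrublet calls alone, H2-Q4 in T and NK cells for HSK against NK went to 0.15. With thinned cells, H2-Q7 for HSK against NK went to 0.08 in fibroblasts and -0.02 in interstitial macrophages. The cause was not tested.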

Other observations

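The 2 clusters named classical monocytes differed in class I level within every library. As a share of the highest cluster, classical monocyte markers averaged 0.472 in cluster 4 and 0.853 in cluster 2. Cluster 4 thus matched the name less closely. Cluster 4, whose leading genes include Plac8 and the interferon-response genes Ifi204, Ifi27l2a and Irf7, had 3405 CPM of B2m in NW and 3157 in NK, against 5201 in HSW and 4642 in HSK. Cluster 2, led by F13a1 and Vcan, had 2136, 2138, 3652 and 3172 CPM in the same order. H2-D1 stood at 2505 against 1786.5 CPM in NW and 2780 against 1992.5 in HSK, and Tap1 at 132 against 101 CPM in NW and 134 against 50.6 in HSK. B2m, H2-D1, H2-K1, H2-Q4, H2-T23, Psmb8 and Tap1 were higher in cluster 4 in 4 of 4 libraries. Cluster 4 gave 58 of the classical monocytes in HSK and 810 in NW. The clusters were drawn from the same cells, so these values are a description.

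Plasma cells had enough cells in NW and NK, and their H2-Q7 stood at 80.0 and 244 CPM. Alveolar type 1 cells had enough cells in NW and HSW, where Psmb8 stood at 56.7 and 153 CPM, from 15 and 47 UMIs.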
